A study of Mus musculus with 19 samples.

Results

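The Hippo pathway and the genes that its effectors YAP and TAZ switch on were followed in mouse mammary tumours driven by ErbB2 that carried or lacked 2 integrin genes. The group was a list of 38 genes, taken by symbol. The rule used no measured value, but the list was drawn up with earlier results of these data known. Of these, 37 had a probe set that named their symbol alone, out of 22180 such genes on the array, and 36 passed the intensity filter, out of 14231 genes tested. Stk3 was not analysed here. Fat4 lay under the filter (a log2 intensity of 4.38 on at least 4 arrays), which its probe sets reached on 1 and 0 of 19 arrays. Where a gene had several probe sets, the one with the highest mean was used.

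All 19 tumours came from MMTV-NIC mice, in which the mouse mammary tumour virus promoter drives an activated ErbB2 receptor and Cre recombinase in the mammary epithelium, so controls carried the oncogene and Cre too. The groups were 5 control tumours labelled NIC WT, 4 with the genotype itgb1 fl/fl (beta 1 integrin knockout, Itgb1 KO), 4 with itgb3 fl/fl (beta 3 integrin knockout, Itgb3 KO) and 6 labelled itgb1 fl/fl itgb3 fl/fl (double knockout, labelled DKO). Total RNA came from flash frozen end-burden tumours, and the labels give no age, strain or batch and do not say whether each tumour came from its own animal. The p-values therefore measure the spread between these tumours, part of which may be technical. Each profile mixes tumour cells with stroma that Cre does not reach.

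The pathway is a kinase cascade. The kinases STK3 and STK4 (mammalian Ste20-like kinases, with the adaptor SAV1) activate LATS1 and LATS2 (with the adaptors MOB1A and MOB1B), which phosphorylate the coactivators YAP and TAZ and keep them out of the nucleus. When the cascade is off, YAP (Yap1) and TAZ (Wwtr1) enter the nucleus, bind the TEAD factors and switch on genes such as Ccn1, Ccn2 and Ankrd1. Adhesion to matrix through integrins is one of the inputs known to act on YAP and TAZ, and control runs mainly through phosphorylation and location of these proteins, which an array does not measure.

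The integrin genes were read first as a check of the labels. Itgb1 differed from control by -1.46 log2 units in the Itgb1 KO and by -1.84 in the labelled DKO (limma adjusted p of 0.0217 and 0.000156). Itgb3 differed from control by -1.12 log2 units in the Itgb3 KO, with all 4 tumours below all controls (adjusted p = 0.723), but in the labelled DKO it differed from control by only 0.01. It stood 1.13 log2 units higher in the labelled DKO than in the Itgb3 KO (adjusted p = 0.0223). The Itgb3 level thus goes against the double knockout label, and every direction given for that group is one for tumours labelled double knockout. Of the luminal epithelium and tumour cell markers, all 11 were tested and their mean log2 level ran from 9.08 to 9.62 over the tumours, and of 7 basal and myoepithelial markers on the array 5 were tested (Krt17, Oxtr, Acta2, Myh11 and Cnn1), while Krt14 and Trp63 lay under the filter on 19 and 17 arrays. Markers of skeletal muscle had a mean above 6 in 4 tumours, 1 in each group.

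Of the 36 members, 2 passed in any of 6 comparisons: Wwtr1, the gene for TAZ, and Frmd6, an upstream FERM protein. They were 1.42 and 1.79 times as high in the labelled DKO as in the Itgb3 KO. In that comparison 2.87% of all genes passed. With the 4 tumours with skeletal muscle markers left out, the differences were 0.47 log2 units for Wwtr1 (0.51 with all tumours) and 0.91 for Frmd6 (0.84 with all), and neither passed over the remaining tumours (adjusted p of 0.133 and 0.0625). In the tumours labelled DKO, the differences from control ran mostly upward: 29 of 36 members lay above 0, where 55.9% of all genes did, with a median of 0.21 log2 units against 0.03 over all genes, and the 11 target genes had a median of 0.43. Markers of stromal and immune cells also lay mostly above control there. These were 10 of 11 for pericytes and smooth muscle, 10 of 11 for macrophages, 11 of 12 for fibroblasts and 11 of 11 for endothelium. In the Itgb1 KO the counts were 5 of 11, 10 of 11, 12 of 12 and 9 of 11 in that order. Of the members, 12 of 36 lay above control in the Itgb1 KO. The part of stromal and immune cells in the members' differences was not tested. The 6 measured genes of the kinase cassette had a median of 0.04, and no single member passed against control (0.386% of all genes did). Both single knockouts lay near control, with member medians of -0.03 and -0.08.

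The region upstream of the start site is shown for 5 members: the pair that passed (Wwtr1 and Frmd6), the member closest to the threshold against control (Ptpn14), and 2 of the classic targets (Ccn1 and Ankrd1). Each run is the 250 bases before the start in RefSeq's GRCm38.p6, 5′ to 3′ on the gene's strand, with the TEAD core motif in capitals (GGAATG, or CATTCC where it lies on the other strand). The windows are chr3:57575911-57576160 (minus strand) for Wwtr1, chr12:70825264-70825513 (plus) for Frmd6, chr1:189728018-189728267 (plus) for Ptpn14, chr3:145649986-145650235 (minus) for Ccn1 and chr19:36119845-36120094 (minus) for Ankrd1.
Wwtr1: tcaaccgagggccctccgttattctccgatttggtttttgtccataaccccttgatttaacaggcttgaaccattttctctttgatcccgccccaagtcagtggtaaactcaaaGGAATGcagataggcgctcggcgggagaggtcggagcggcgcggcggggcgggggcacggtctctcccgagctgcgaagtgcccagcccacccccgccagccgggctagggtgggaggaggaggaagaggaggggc
Frmd6: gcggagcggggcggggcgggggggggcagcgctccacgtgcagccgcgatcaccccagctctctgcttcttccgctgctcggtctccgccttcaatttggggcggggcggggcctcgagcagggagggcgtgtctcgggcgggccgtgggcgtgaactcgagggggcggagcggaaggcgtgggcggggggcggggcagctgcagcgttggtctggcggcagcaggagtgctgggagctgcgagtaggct
Ptpn14: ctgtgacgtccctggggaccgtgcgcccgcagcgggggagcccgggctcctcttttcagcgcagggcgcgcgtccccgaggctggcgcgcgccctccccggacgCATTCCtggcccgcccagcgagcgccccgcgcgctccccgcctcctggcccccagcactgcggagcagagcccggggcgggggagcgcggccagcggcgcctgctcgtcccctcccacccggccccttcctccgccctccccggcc
Ccn1: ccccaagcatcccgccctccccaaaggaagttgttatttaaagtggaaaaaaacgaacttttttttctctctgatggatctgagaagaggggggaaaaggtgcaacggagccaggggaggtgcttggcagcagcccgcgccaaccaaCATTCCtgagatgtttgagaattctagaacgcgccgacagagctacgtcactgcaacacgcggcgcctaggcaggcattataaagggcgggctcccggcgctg
Ankrd1: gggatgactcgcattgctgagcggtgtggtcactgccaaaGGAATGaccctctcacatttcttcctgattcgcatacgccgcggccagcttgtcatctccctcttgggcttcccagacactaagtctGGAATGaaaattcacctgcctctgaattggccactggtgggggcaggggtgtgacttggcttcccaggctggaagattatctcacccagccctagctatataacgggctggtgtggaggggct

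The motif base nearest the start lay 131 bases upstream in Wwtr1, 141 in Ptpn14 and 98 in Ccn1. Ankrd1 held the motif at both 205 and 118 bases upstream, counted likewise. From the start of the other Wwtr1 window the distance was 165 bases. The Frmd6 window had no match to these letters. Of the 38 members, 28 had a promoter entry, and 13 of them (46.4%) held the motif in a window, against 14.4% of all 27025 genes with an entry. By role, these were 4 of 5 nuclear effectors, 2 of 6 genes of the kinase cassette, 3 of 10 upstream regulators and 4 of 7 target genes. Some genes have several windows that overlap, as in Wwtr1 and Tead3. A match describes letters in a window and not a bound site.

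**Figure D1:**
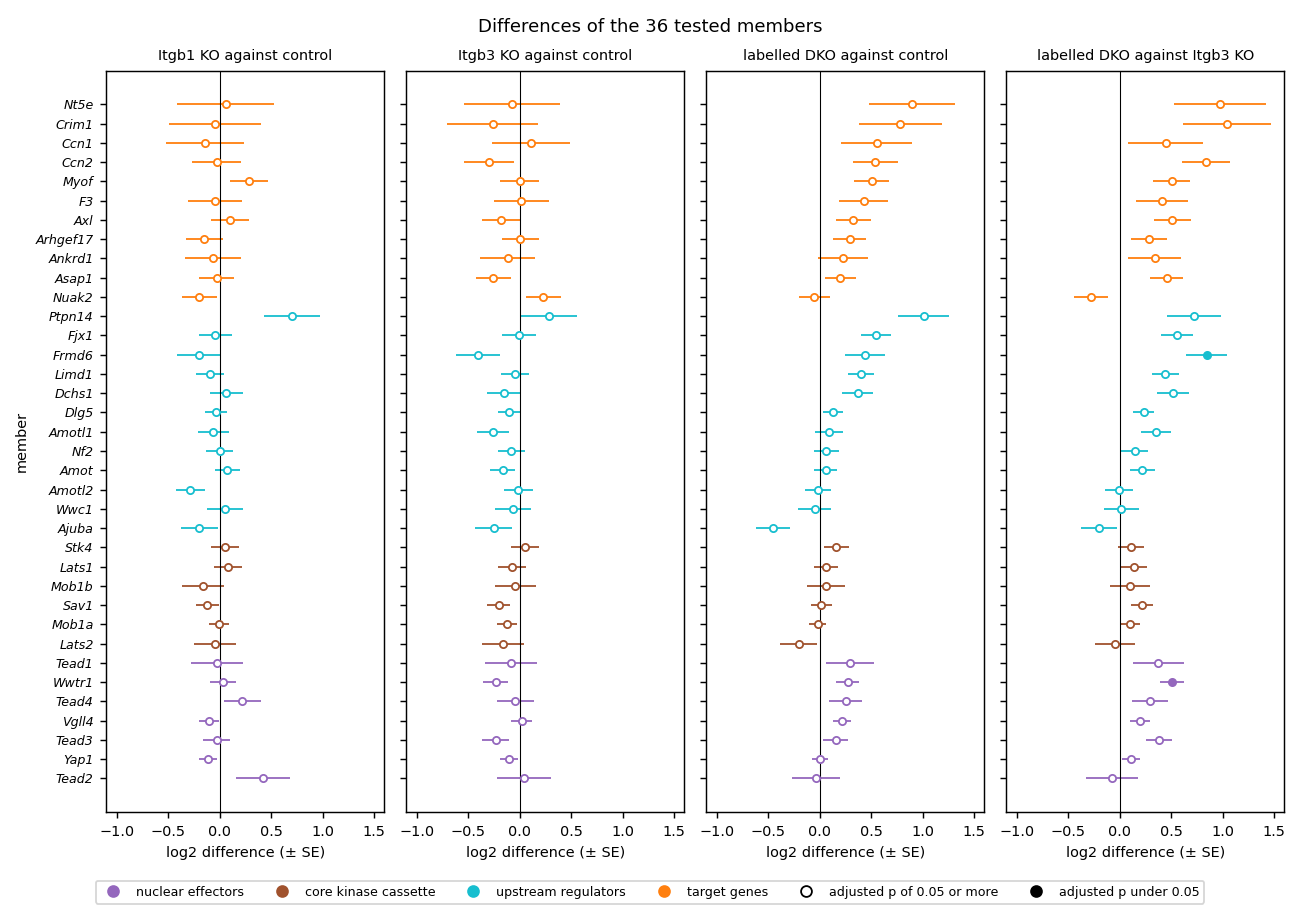
Log2 difference (± SE) of each of the 36 tested members in 4 comparisons, ordered by role and, within a role, by the difference between the labelled DKO and control; filled points have an adjusted p under 0.05. Frmd6 and Wwtr1 in the comparison of labelled DKO with Itgb3 KO are the 2 filled points, and most target genes lie right of 0 in both comparisons of the labelled DKO shown.

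Each single knockout was set against control. In the Itgb1 KO, 0 of 36 members passed at an adjusted p of 0.05 (0.00703% of all genes did), and 1 member, Ptpn14, had an unadjusted p under 0.05 (2.78% of members, 4.86% of all genes). The member differences ran from -0.29 (Amotl2) to 0.70 (Ptpn14), and 12 of 36 lay above 0, where 55.9% of all genes did. In the Itgb3 KO, 0 of 36 members passed (0% of all genes) and 0 had an unadjusted p under 0.05 (6.14% of all genes). Differences there ran from -0.40 (Frmd6) to 0.29 (Ptpn14), and 9 of 36 lay above 0 against 47.6% of all genes.

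In the labelled DKO against control, 0 of 36 members passed (0.386% of all genes), while 11 reached an unadjusted p under 0.05 (30.6% of members, 16.9% of all genes). Of these, 10 lay higher and 1 lower, against 11.2% and 5.68% of all genes. Among these 11, adjusted p-values ran upward from 0.0714. The 95% intervals of variable genes were wide, from -0.16 to 1.27 log2 units for Ccn1 and from 0.01 to 1.78 for Nt5e. Only Limd1 had every labelled DKO tumour above every control (1.19% of all genes did), and it too did not pass.

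Between the labelled DKO and the Itgb3 KO, 2 of 36 members passed, both higher (2.87% of all genes passed, and 2.38% did so as higher). Differences lay above 0 for 31 members (54.7% of all genes), and an unadjusted p under 0.05 was reached by 16 members (44.4%, against 21.1% of all genes). In 9 members every labelled DKO tumour lay above every Itgb3 KO tumour (5.88% of all genes): Wwtr1, Sav1, Amotl1, Frmd6, Dchs1, Limd1, Ccn2, Crim1 and Asap1. The comparison shares the labelled DKO arrays with that against control, so the pair are not independent. Array medians, a property of the deposited values, did not overlap between these groups (4.32 to 4.34 in the labelled DKO, 4.41 to 4.48 in the Itgb3 KO). With each array centred on its median, all genes shifted by 0.11 log2 units in this comparison, 10 members passed, and the share of higher calls over all genes went from 82.8% to 95.7%. The part of this offset in the result was not tested.

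Against the Itgb1 KO, 0 of 36 members passed in the labelled DKO (0.0211% of all genes), and 6 had an unadjusted p under 0.05 (16.7%, against 12.3% of all genes), while 29 differences lay above 0 (51.1% of all genes). Vgll4, Fjx1 and Limd1 had every labelled DKO tumour above every Itgb1 KO tumour (1.57% of all genes). The interaction, which is the labelled DKO minus control less both single knockout differences, gave 0 of 36 calls (0% of all genes) and 8 members at an unadjusted p under 0.05 (22.2%, against 12.5%). Of the interaction terms, 32 of 36 lay above 0, where 50.8% of all genes did. As Itgb3 differed by only 0.01 between the labelled DKO and control, these terms cannot be read as effects of losing both genes. The smallest adjusted p among them was that of Frmd6, with a term of 1.05 log2 units (SE 0.29, adjusted p = 0.215).

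**Figure D2:**
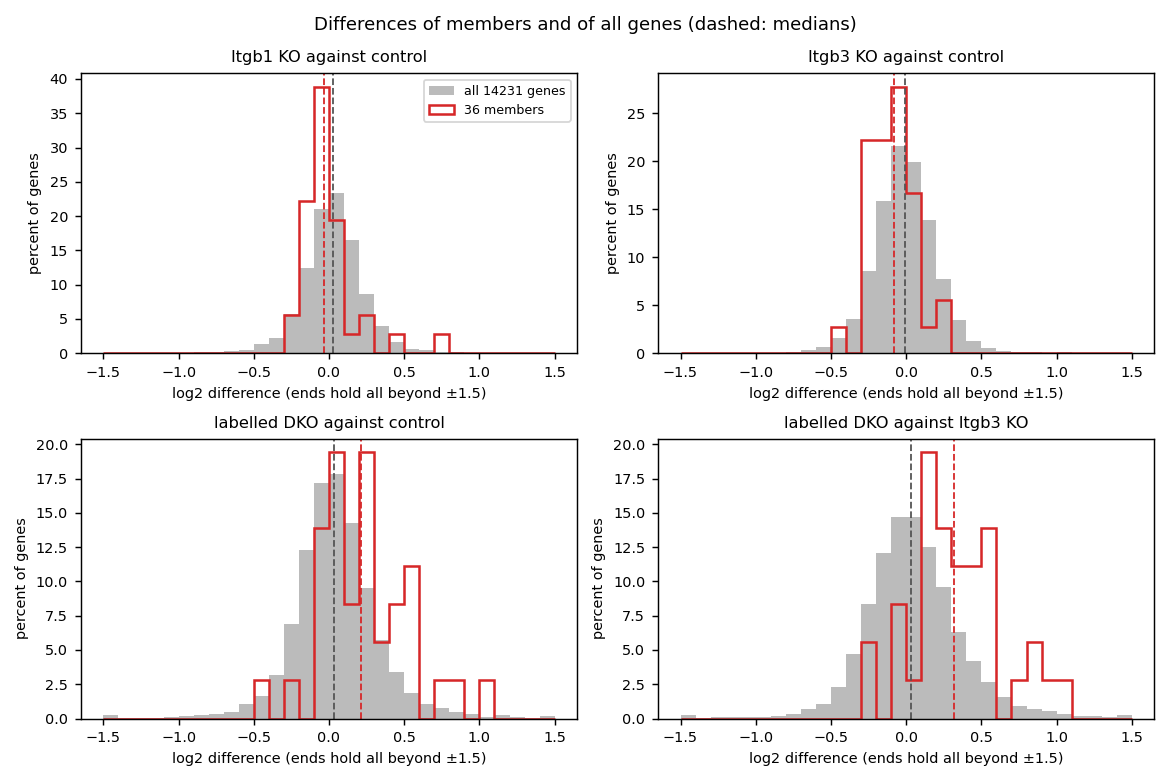
Percent of genes at each log2 difference for the 36 members (red outline) and all 14231 genes (grey) in 4 comparisons, with dashed lines at the medians and the end bins holding all values beyond 1.5. The member medians lie at -0.03 and -0.08 in the single knockouts, and at 0.21 and 0.32 in the labelled DKO against control and against the Itgb3 KO.

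Wwtr1 (TAZ) was the nuclear effector that passed, against the Itgb3 KO. It had log2 intensities of 8.34, 8.72, 8.73, 8.95 and 8.84 in controls, 8.88, 8.57, 8.59 and 8.96 in the Itgb1 KO, and 8.46, 8.47, 8.34 and 8.66 in the Itgb3 KO. The 6 labelled DKO tumours ran from 8.79 through a median of 9.01 to 9.13. The Itgb3 KO tumours were the low ones and shared no value range with the labelled DKO, whereas control and Itgb1 KO tumours reached into both. The difference between labelled DKO and Itgb3 KO was 0.51 (SE 0.12, 95% interval 0.26 to 0.76, adjusted p = 0.0314), made up of differences from control of 0.28 in the one group (adjusted p = 0.224) and -0.23 in the other (adjusted p = 0.832). The call was lost when any 1 of the 4 Itgb3 KO tumours or labelled DKO replicate 1, 2 or 3 was left out (adjusted p of 0.05001 to 0.0912).

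Yap1, the partner coactivator, was the steadiest member, with a within-group SD of 0.0925 against a median of 0.242 over all genes. Its values were 8.20, 8.25, 8.46, 8.26 and 8.26 in controls, 8.12, 8.16, 8.13 and 8.27 in the Itgb1 KO, and 8.22, 8.18, 8.14 and 8.19 in the Itgb3 KO, and they ran from 8.21 through a median of 8.26 to 8.53 in the labelled DKO. The groups overlapped. Labelled DKO and control differed by 0.01 (95% interval -0.16 to 0.17, adjusted p = 0.983).

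Vgll4, which competes with YAP for TEAD factors, read 7.24, 7.50, 7.28, 7.49 and 7.39 in controls, 7.28, 7.13, 7.30 and 7.41 in the Itgb1 KO, 7.31, 7.39, 7.29 and 7.60 in the Itgb3 KO, and 7.45 to 7.72 (median 7.62) in the labelled DKO. It lay 0.32 above the Itgb1 KO in the labelled DKO, with no overlap (SE 0.09, adjusted p = 0.184). Of the TEAD factors, which bind DNA for YAP and TAZ, Tead3 had a median of 6.61 in the labelled DKO (6.14 to 6.65) against 5.96, 6.15, 6.24 and 6.15 in the Itgb3 KO, 6.43, 6.26, 6.11 and 6.50 in the Itgb1 KO and 6.13, 6.50, 6.36, 6.15 and 6.63 in controls. Only 1 labelled DKO tumour fell within the Itgb3 KO range, and the difference of 0.39 did not pass (SE 0.13, adjusted p = 0.0946), though it did without labelled DKO replicate 4 (0.46, adjusted p = 0.0464). In 26 of 29 fits with other settings or without some tumours it did not pass (adjusted p up to 0.244).

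Tead4 spread widely in the labelled DKO, from 6.15 through a median of 6.68 to 7.40. It read 6.66, 6.45, 6.54, 6.58 and 6.30 in controls, 6.83, 6.60, 6.53 and 6.94 in the Itgb1 KO, and 6.33, 6.49, 6.51 and 6.51 in the Itgb3 KO. The labelled DKO thus held both the lowest and the highest tumour for this gene, 0.25 above control on average (adjusted p = 0.453). Tead1 and Tead2 differed from control by 0.30 and -0.03 in the labelled DKO, with adjusted p of 0.537 and 0.961.

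The kinase cassette differed from control by -0.20 to 0.16 log2 units over its 6 measured genes and the 3 knockout groups, and 0 of them passed in any of 6 comparisons. Stk4, an upstream kinase, read 6.9999, 7.08, 7.08, 6.79 and 7.02 in controls, 7.14, 7.02, 6.88 and 7.13 in the Itgb1 KO, 7.23, 7.11, 6.61 and 7.23 in the Itgb3 KO, and 6.88 to 7.45 (median 7.13) in the labelled DKO. Lats1 ran over 7.96, 8.38, 8.05, 7.82 and 7.59 in controls, 7.95, 8.04, 7.88 and 8.30 in the Itgb1 KO, 7.74, 8.02, 7.79 and 7.98 in the Itgb3 KO, and 7.94 to 8.19 (median 8.01) in the labelled DKO. The groups overlapped in both genes.

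Lats2, itself a known YAP target that feeds back on the pathway, was the cassette gene with the lowest difference from control in the labelled DKO, at -0.20 (SE 0.18, adjusted p = 0.602). Controls read 4.79, 4.86, 5.34, 5.71 and 5.85, the Itgb1 KO 5.53, 5.07, 5.29 and 5.18, the Itgb3 KO 4.98, 5.16, 5.15 and 5.31, and the labelled DKO 4.69 to 5.48 (median 5.11). The controls alone covered the whole spread of the other groups apart from 1 labelled DKO tumour. Mob1b, an adaptor of the LATS kinases, read 8.77, 9.33, 9.62, 8.93 and 8.88 in controls, 9.47, 8.68, 8.70 and 8.93 in the Itgb1 KO, 8.69, 9.35, 8.81 and 9.40 in the Itgb3 KO, and 8.89 to 9.41 (median 9.21) in the labelled DKO, again with overlap. Its counterpart Mob1a and the scaffold Sav1 differed from control by -0.02 and 0.02 in the labelled DKO.

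Among the upstream regulators, Frmd6 was the one that passed. It encodes a FERM-domain protein related to Drosophila Expanded. Controls read 7.49, 6.94, 7.63, 7.89 and 7.94, the Itgb1 KO 7.67, 7.01, 7.64 and 7.18, and the Itgb3 KO 7.08, 6.92, 7.12 and 7.58, while the labelled DKO ran from 7.60 through a median of 7.98 to 8.38. All 6 labelled DKO tumours lay above all 4 Itgb3 KO tumours, the closest pair being 7.60 and 7.58. The difference was 0.84 (SE 0.20, 95% interval 0.42 to 1.27, adjusted p = 0.0325), with differences from control of 0.44 in the one group (adjusted p = 0.251) and -0.40 in the other (adjusted p = 0.83). Leaving out any 1 of the Itgb3 KO tumours or labelled DKO replicate 1, 3 or 4 ended the call (adjusted p of 0.0502 to 0.102).

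Ptpn14, a phosphatase that binds YAP and holds it in the cytoplasm, had the largest difference of any member between labelled DKO and control. It read 5.73, 6.38, 6.48, 6.02 and 7.21 in controls, 7.10, 7.58, 6.90 and 6.69 in the Itgb1 KO, 6.67, 7.21, 6.50 and 6.23 in the Itgb3 KO, and 6.90 to 7.77 (median 7.47) in the labelled DKO. Control replicate 5 was the 1 control within the range of the labelled DKO. The difference from control was 1.01 in the labelled DKO (SE 0.25, adjusted p = 0.0714) and 0.70 in the Itgb1 KO (SE 0.27, adjusted p = 0.982). Without control replicate 5 the labelled DKO difference was 1.22 and passed (adjusted p = 0.0251), as it did without labelled DKO replicate 5 (1.09, adjusted p = 0.0499). It did not pass in 27 of 29 fits with other settings or without some tumours (adjusted p up to 0.296).

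Fjx1, the counterpart of the fly Golgi kinase Four-jointed that acts on Fat and Dachsous cadherins, lay close to the filter, which it reached on 10 arrays. Controls read 4.21, 4.02, 4.28, 4.49 and 4.51, the Itgb1 KO 4.25, 4.38, 4.33 and 4.10, the Itgb3 KO 4.46, 4.57, 3.95 and 4.21, and the labelled DKO 4.47 to 5.33 (median 4.80). The labelled DKO tumours lay above all Itgb1 KO tumours, but replicate 3 (4.47) lay below 2 controls and 1 Itgb3 KO tumour. On average the group stood 0.55 above control (adjusted p = 0.0872) and 0.56 above the Itgb3 KO (adjusted p = 0.0578), and the latter passed without labelled DKO replicate 3 (0.63, adjusted p = 0.0423). The difference from the Itgb3 KO did not pass in 25 of 29 fits with other settings or without some tumours (adjusted p up to 0.24). Dchs1, the Dachsous cadherin, stood 0.52 above the Itgb3 KO with no overlap (adjusted p = 0.0722).

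Limd1 and Ajuba, LIM proteins that bind LATS kinases, went opposite ways against control. Limd1 read 8.37, 8.55, 8.53, 8.32 and 8.61 in controls, 8.54, 8.40, 8.07 and 8.52 in the Itgb1 KO, 8.58, 8.48, 8.12 and 8.56 in the Itgb3 KO, and 8.68 to 9.24 (median 8.78) in the labelled DKO, so the labelled DKO overlapped with no other group. Its differences were 0.40 from control, 0.50 from the Itgb1 KO and 0.44 from the Itgb3 KO (adjusted p of 0.127, 0.142 and 0.0678). Ajuba read 5.96, 5.89, 6.12, 6.34 and 6.60 in controls, 6.14, 5.93, 6.05 and 5.81 in the Itgb1 KO, 5.66, 6.07, 5.90 and 6.09 in the Itgb3 KO, and 5.23 to 6.23 (median 5.78) in the labelled DKO. Of the labelled DKO tumours, 4 lay under all controls, with a difference of -0.45 (SE 0.16, adjusted p = 0.175), and this was the 1 member lower than control at an unadjusted p under 0.05.

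Amotl2, an angiomotin that tethers YAP and is also a YAP target, was the only member with every Itgb1 KO tumour under every control (0.45% of all genes). The Itgb1 KO read 5.79, 5.74, 5.66 and 5.41, against 5.99, 5.81, 5.80, 6.18 and 5.89 in controls, 5.87, 5.85, 5.87 and 6.10 in the Itgb3 KO, and 5.50 to 6.32 (median 5.94) in the labelled DKO. The gap between the closest tumours was small and the difference of -0.29 did not pass (SE 0.14, adjusted p = 0.982). Nf2 (the tumour suppressor Merlin), Amot, Amotl1, Wwc1 (KIBRA) and Dlg5 differed from control in the labelled DKO by -0.05 to 0.13.

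**Figure D3:**
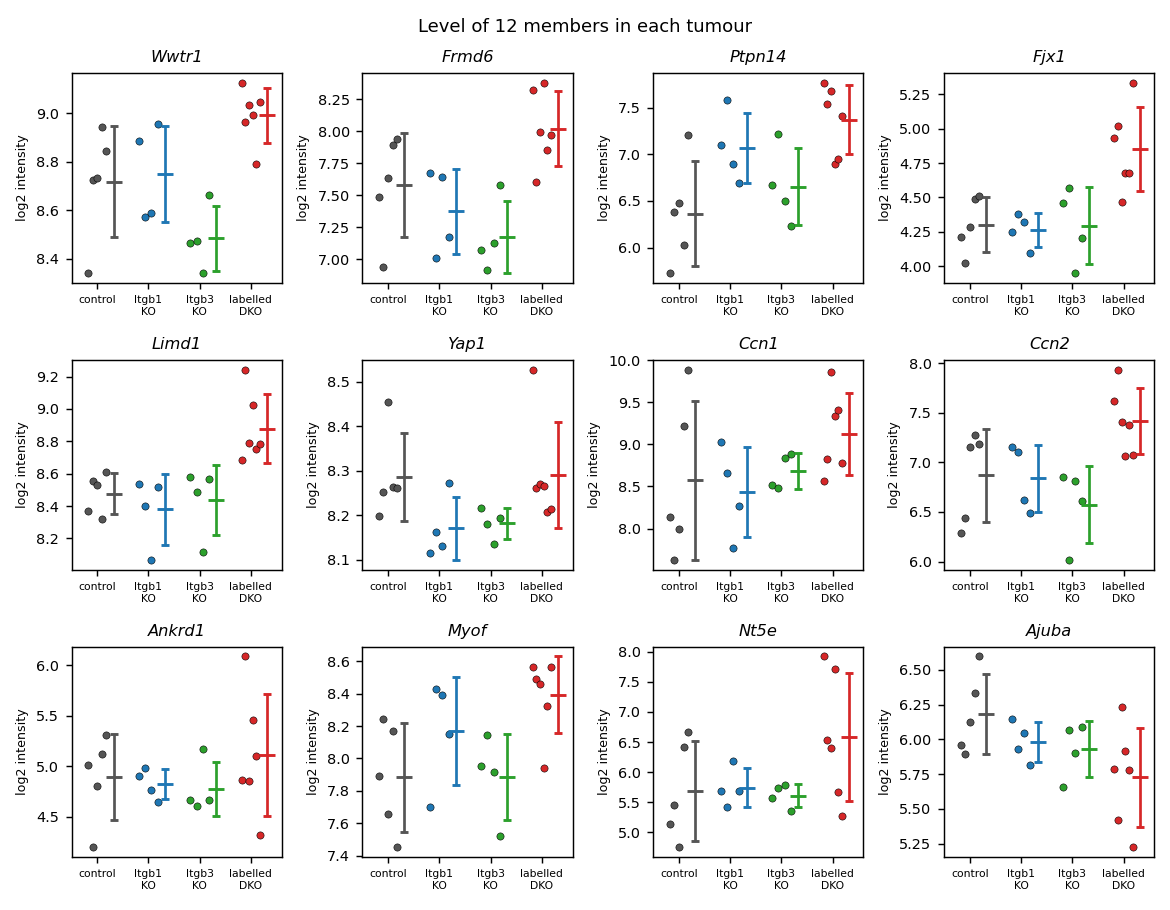
Log2 intensity of 12 members in each of the 19 tumours, with bars for the group mean ± SD (5 control, 4 Itgb1 KO, 4 Itgb3 KO and 6 labelled DKO tumours); each panel has its own axis. Limd1 shows the labelled DKO at 8.68 to 9.24 above all other tumours, and Ccn1 shows controls from 7.62 to 9.89 that span nearly every group.

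The target genes gave the highest median of the 4 roles against control in the labelled DKO, but 0 of 11 passed there or elsewhere. Of the 3 classic targets, Ccn2, a matricellular protein (CTGF), separated the groups most. Controls read 6.28, 6.44, 7.16, 7.28 and 7.19, the Itgb1 KO 7.16, 7.10, 6.62 and 6.49, the Itgb3 KO 6.85, 6.01, 6.82 and 6.61, and the labelled DKO 7.06 to 7.94 (median 7.39). Every labelled DKO tumour exceeded every Itgb3 KO tumour, by 0.84 on average (SE 0.23, adjusted p = 0.0548), and the difference from control was 0.54 (adjusted p = 0.217). The difference from the Itgb3 KO passed without control replicate 1 (0.84, adjusted p = 0.0455) or labelled DKO replicate 6 (0.91, adjusted p = 0.0467). It did not pass in 25 of 29 fits with other settings or without some tumours (adjusted p up to 0.163). The lowest Ccn2 value belonged to Itgb3 KO replicate 2, which also had the lowest fibroblast marker mean of all tumours (4.95, against 5.84 to 7.77 in the others). Labelled DKO replicate 5, with the next lowest fibroblast mean (5.84), read 7.38 for Ccn2. Itgb3 KO replicate 3, with a fibroblast mean of 7.33, read 6.82. The highest Ccn2 value (7.94) belonged to labelled DKO replicate 2, which also had the highest fibroblast mean (7.77). The part of fibroblast RNA in this gene's values was not tested.

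Ccn1 (CYR61), the sister matricellular gene, varied more between tumours of a group than between groups, with a within-group SD of 0.621. Controls read 8.14, 7.62, 7.99, 9.22 and 9.89, the Itgb1 KO 9.03, 8.66, 7.77 and 8.27, the Itgb3 KO 8.51, 8.48, 8.84 and 8.89, and the labelled DKO 8.57 to 9.86 (median 9.08). All groups overlapped with the controls, and the labelled DKO stood 0.55 above them (SE 0.34, adjusted p = 0.427).

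Ankrd1, a muscle ankyrin repeat protein and YAP target, read 5.01, 4.20, 4.80, 5.13 and 5.31 in controls, 4.90, 4.98, 4.76 and 4.65 in the Itgb1 KO, 4.66, 4.60, 5.17 and 4.66 in the Itgb3 KO, and 4.32 to 6.09 (median 4.98) in the labelled DKO. Its difference from control in the labelled DKO was 0.22 (SE 0.24, adjusted p = 0.68). The highest value, in labelled DKO replicate 2, came from the tumour with the highest skeletal muscle marker mean (7.34), and the high Itgb3 KO value came from replicate 3, whose muscle mean was 6.40. Control replicate 2, with a muscle mean of 7.19, had the lowest Ankrd1 value. Itgb1 KO replicate 1, with a muscle mean of 6.61, read 4.90, within the range of the other Itgb1 KO tumours. The part of muscle RNA in this gene's values was not tested.

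Myof, a ferlin of the cell membrane, read 7.89, 8.24, 7.66, 8.17 and 7.45 in controls, 7.70, 8.43, 8.39 and 8.15 in the Itgb1 KO, 7.96, 8.15, 7.92 and 7.52 in the Itgb3 KO, and 7.94 to 8.57 (median 8.47) in the labelled DKO. Of the labelled DKO tumours, 5 lay above all controls, at a difference of 0.51 (SE 0.17, adjusted p = 0.148). Axl, a receptor tyrosine kinase, read 7.32, 7.77, 7.88, 7.95 and 7.53 in controls, 7.80, 7.9993, 7.68 and 7.69 in the Itgb1 KO, 7.20, 7.58, 7.75 and 7.50 in the Itgb3 KO, and 7.49 to 8.45 (median 8.15) in the labelled DKO. For Axl the labelled DKO overlapped with each other group and reached above them, with a mean 0.33 above control (adjusted p = 0.328) and 0.51 above the Itgb3 KO (adjusted p = 0.112).

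Nt5e, the ectonucleotidase CD73, had the widest within-group spread of all members (SD 0.769). Controls read 5.13, 5.46, 4.75, 6.42 and 6.67, the Itgb1 KO 5.69, 5.42, 6.19 and 5.68, the Itgb3 KO 5.57, 5.73, 5.78 and 5.35, and the labelled DKO 5.26 to 7.92 (median 6.47). The labelled DKO held the highest value of all tumours and also 1 under every Itgb3 KO tumour, and the difference from control of 0.90 did not pass (SE 0.42, adjusted p = 0.289). Crim1, a membrane protein that binds growth factors, reached 9.34 in labelled DKO replicate 6 while the other 5 ran from 6.22 to 7.01. Its difference from control went from 0.78 with that tumour to 0.32 without it. F3 (tissue factor), Arhgef17 and Asap1 differed from control by 0.43, 0.29 and 0.20, and Nuak2 (a kinase related to AMPK) by -0.05.

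**Figure D4:**
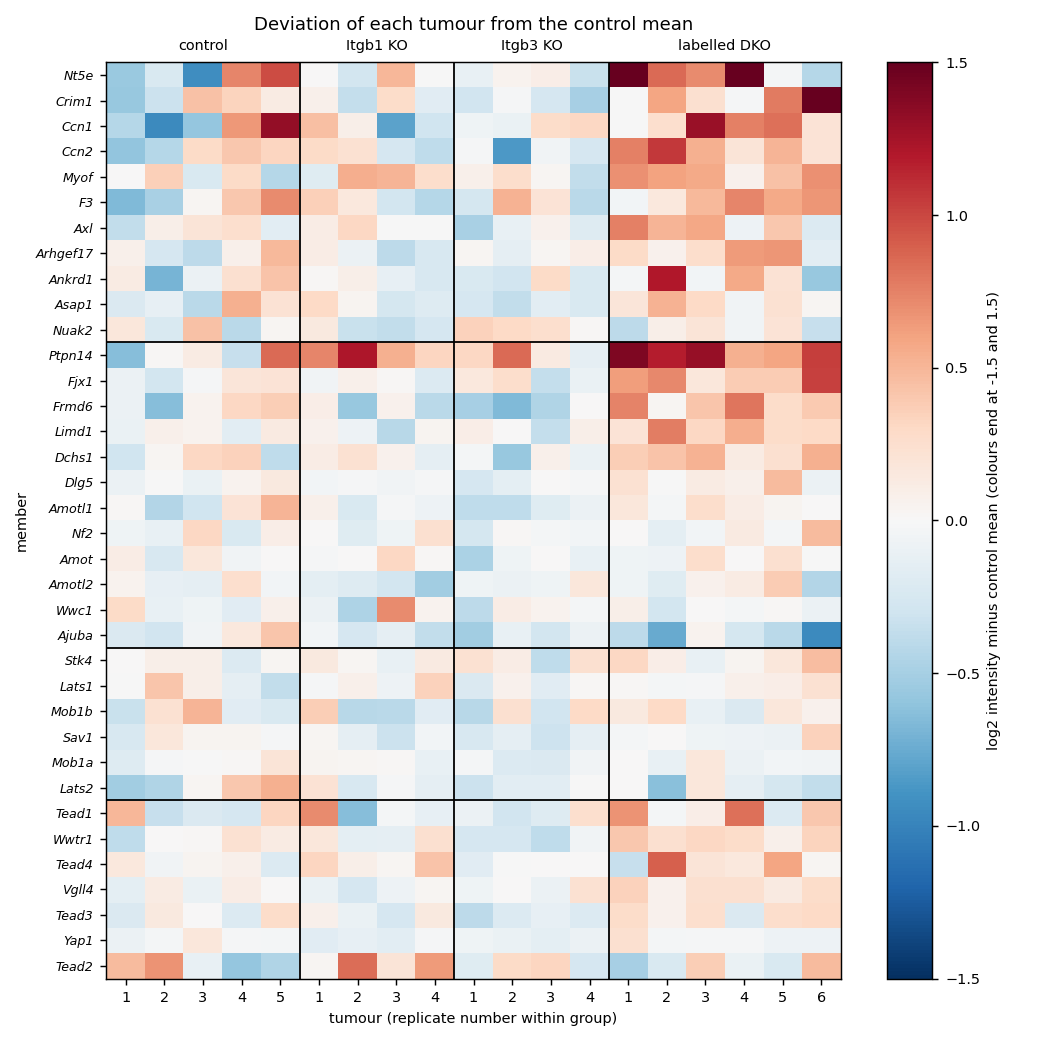
Deviation of each tumour from the control mean in log2 units for the 36 members, with tumours in columns by group and members in rows by role (target genes at the top, then upstream regulators, kinase cassette and nuclear effectors); colours end at -1.5 and 1.5. The labelled DKO columns are warm for most target genes, and the kinase cassette rows stay pale apart from Lats2 and Mob1b.

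Taken tumour by tumour, the median deviation of the 36 members from the control mean ran from 0.08 to 0.24 in the labelled DKO, from -0.20 to -0.07 in the Itgb3 KO, from -0.08 to 0.08 in the Itgb1 KO and from -0.11 to 0.13 in controls. The medians over all genes stayed between -0.03 and 0.05. For the target genes alone the controls covered -0.37 to 0.33, so the labelled DKO range of 0.03 to 0.53 overlapped with theirs.

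Genes of the pathway outside the member list were read from 2 further lists. Of 61 other pathway genes (polarity proteins, RASSF proteins, Fat cadherins and phosphatase subunits among them), 53 were on the array and 47 were tested. Against control, 0 passed in the labelled DKO, 34 lay above 0 and the median was 0.09, where 0.386% of all genes passed, 55.9% lay above 0 and the median was 0.03. Llgl2, a polarity protein of the Scribble group, was the 1 of 47 that passed against the Itgb3 KO, where 2.87% of all genes did. It ran from 7.69 to 8.40 in the labelled DKO, from 7.33 to 7.50 in the Itgb3 KO, from 7.22 to 7.84 in the Itgb1 KO and from 7.02 to 7.68 in controls. Every labelled DKO tumour thus lay above every control, as in 1 of the 47 genes and 1.19% of all genes. Each also lay above every Itgb3 KO tumour, as in 4 of the 47 genes and 5.88% of all genes. The differences were 0.62 from the Itgb3 KO (SE 0.15, adjusted p = 0.0381) and 0.65 from control (adjusted p = 0.0578). Scrib, its partner in cell polarity, and Rassf4, a RASSF family member, lay 0.38 and 0.56 above control (adjusted p of 0.139 and 0.141).

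The other list held 23 further YAP and TAZ targets, of which 19 were tested. In the labelled DKO 0 passed against control, 12 lay above 0 (55.9% of all genes) and the median was 0.09. Col12a1, a fibril-associated collagen, was the 1 of 19 that passed against the Itgb3 KO (2.87% of all genes), at 1.55 log2 units (SE 0.39, adjusted p = 0.0381), with 6.43 to 8.87 in the labelled DKO and 5.24 to 7.06 in the Itgb3 KO, ranges that overlap. Its lowest and highest values belonged to Itgb3 KO replicate 2 and labelled DKO replicate 2, which had the lowest and highest fibroblast marker means (4.95 and 7.77). In the Itgb1 KO, replicate 3 had the highest Col12a1 value (7.50) and the lowest fibroblast mean (6.66). The part of fibroblast RNA in the Col12a1 values was not tested. Tgfb2, Ccdc80 and Sgk1 (a growth factor, a matrix protein and a kinase) lay 0.90, 0.81 and 0.61 above control in the labelled DKO (adjusted p of 0.125, 0.146 and 0.165). In that order they differed from control by 0.64, -0.22 and 0.37 in the Itgb3 KO and by 0.33, 0.37 and 0.38 in the Itgb1 KO, and none passed.

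Markers of stromal and immune cells stood higher beside the members. In these bulk tumours more cells of a type and more RNA per cell cannot be told apart. Between labelled DKO and Itgb3 KO, all 11 pericyte and smooth muscle markers lay above 0, where 54.7% of all genes did. Their mean ran from 6.72 to 7.30 against 6.29 to 6.60 with no overlap. All 11 macrophage markers lay above 0 too (7.27 to 8.21 against 7.06 to 7.49), and 3 of them were called, where 2.87% of all genes were. The same held for all 12 fibroblast markers (5.84 to 7.77 against 4.95 to 7.33) and all 11 endothelial ones (6.08 to 6.77 against 5.99 to 6.22), none of them called. The last 3 of these ranges overlapped. Of the luminal and tumour cell markers 8 of 11 lay above 0, and 4 of 11 had an unadjusted p under 0.05 (21.1% of all genes). Their mean overlapped too, at 9.17 to 9.62 against 9.16 to 9.35. Of 8 T and NK cell markers 5 were tested, all above 0 in this comparison, and of 7 adipocyte markers 5 were tested, 4 of them above 0. Against control, 5 of 11 luminal and tumour cell markers lay above 0 in the labelled DKO (55.9% of all genes). Under the filter on all 19 arrays were Cd3d, Cd2 and Klrb1c of T and NK cells, Cd79a, Cd79b and Ms4a1 of B and plasma cells, Adipoq of adipocytes and Krt14 of basal cells.

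**Figure D5:**
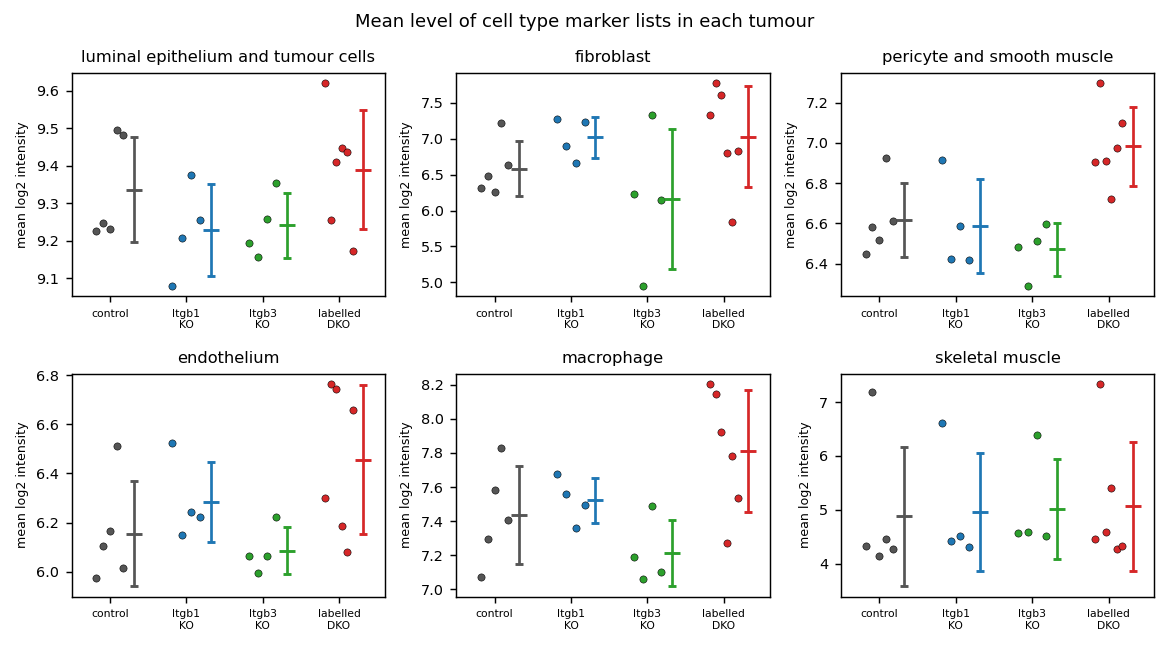
Mean log2 intensity of 6 marker lists in each tumour, with bars for the group mean ± SD; each panel has its own axis. The pericyte and smooth muscle mean is 6.72 to 7.30 in the labelled DKO and 6.29 to 6.60 in the Itgb3 KO, and the skeletal muscle mean exceeds 6 in 1 tumour of each group.

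Pairs of members were then correlated over the 19 tumours with group means removed (100000 permutations within groups, 6 pairs, Benjamini-Hochberg adjustment). None passed with all tumours by either coefficient, and the p-values given are those of Pearson r unless Spearman is named. Lats2 and Ccn1 had the highest Pearson r, at 0.718 (p = 0.0153, adjusted p = 0.0854), and 0.624 without the 2 tumours farthest from the median Lats2 value. The Spearman coefficient of this pair was 0.560 (Spearman p = 0.0582, adjusted p = 0.116). Ccn2 and Ankrd1 had r = 0.531 (Spearman coefficient 0.516, p = 0.0285, adjusted p = 0.0854) and 0.639 without 2 tumours. Ccn1 and Ccn2, both classic targets, had r = 0.417 (Spearman coefficient 0.409, adjusted p = 0.15) and 0.398 without 2 tumours. Ccn1 with Ankrd1 gave 0.398 (Spearman coefficient 0.381, adjusted p = 0.15), Yap1 with Wwtr1 0.423 (Spearman coefficient 0.440, adjusted p = 0.132), and Amotl2 with Ccn1 0.472 (Spearman coefficient 0.604, adjusted p = 0.0938). Without 2 tumours these were 0.423, 0.526 and 0.505. Leaving out 1 tumour brought the Lats2 and Ccn1 pair under the threshold without control replicate 1 (r = 0.724, adjusted p = 0.0471) or labelled DKO replicate 1 (0.806, adjusted p = 0.027), and the Ccn2 and Ankrd1 pair without control replicate 1 (0.632, adjusted p = 0.0471) or labelled DKO replicate 4 (0.626, adjusted p = 0.0389). The genes of a pair were read from the same RNA, so they share its composition.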

How the data were processed

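RNA of 19 tumours was measured on Affymetrix whole-transcript mouse arrays. The deposited table holds log2 intensities for 41345 probe sets, which the authors normalized in Affymetrix Expression Console, as the submitters' processing notes name it. How background was corrected and probes summarized is not given in the sources used here. These values were used as deposited, so array medians kept their differences, and a gene with low signal has a compressed difference. Replicate numbers follow the order of the samples and pair nothing.

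A probe set was kept if it named 1 symbol and exceeded or equalled 4.38, the table median, on 4 or more arrays. With 1 set per gene (the highest mean), 14231 genes remained. R 4.3.3 and limma 3.58.1 (lmFit, eBayes) fitted all 19 arrays at once with 1 mean per group and no covariate, giving 15 residual degrees of freedom and 18.7 after moderation. P-values were two-sided and were adjusted by Benjamini and Hochberg's method over all genes within each of 6 comparisons, with a threshold of 0.05. The number of arrays limits the precision. Promoters came from RefSeq tables of GRCm38.p6, and 28 of 38 members matched.

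The members and all lists were chosen with earlier results of these data known. Members that passed, the 4 of each role with the smallest p between labelled DKO and control, the 2 with the smallest p in each other comparison, and Yap1, Wwtr1, Ccn1, Ccn2 and Ankrd1 have their values in the text, per tumour, or as the lowest, median and highest for the 6 labelled DKO tumours. From the further lists all genes that passed and the 3 with the smallest p against control are named. Crim1 was singled out after its values were seen. Alternatives were other filters, scalings, probe set rules, models, and fits that left out each tumour. Stk3 was not analysed here.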

Additional observations from a re-analysis of the deposited data

Results flagged for a closer look

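In 10 of 144 groups of member values 1 tumour stood apart from the rest of its group by Dixon's test at the 95% level, which chance gives in about 1 group of 20. In controls these were Yap1 in replicate 3 (8.46, others 8.20 to 8.26) and Stk4 in replicate 4 (6.79, others 6.9999 to 7.08). In the Itgb1 KO they were Mob1a in replicate 4 (7.75, others 7.88 to 7.89) and Amot in replicate 3 (6.09, others 5.76 to 5.80). In the Itgb3 KO, Tead4 was low in replicate 1 (6.33, others 6.49 to 6.51), Amotl2 was high in replicate 4 (6.10, others 5.85 to 5.87), and Ankrd1 was high in replicate 3 (5.17, others 4.60 to 4.66). In the labelled DKO, Yap1 was high in replicate 1 (8.53, others 8.21 to 8.27), and replicate 6 was high for both Sav1 (8.36, others 7.93 to 8.02) and Crim1 (9.34, others 6.22 to 7.01). Without that replicate the Crim1 difference from the Itgb3 KO was 0.58 in place of 1.05.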

How the results depend on the processing

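No paired analysis was possible because the labels give no replicate numbers. Member medians kept their sign in all alternatives for the labelled DKO comparisons and the interaction. Genes called between labelled DKO and control went from 55 to 27 with no intensity filter, 31 after a further quantile normalization, 100 with arrays centred on their medians, 2 with only those groups in the fit (0 higher), 26 with a trended, robust prior, 31 with array weights and 8 without the 4 tumours with skeletal muscle markers, an alternative chosen after seeing the data. The share of higher calls was 87% with centring, against 76.4%. Against the Itgb3 KO, the counts were 231 genes and 1 member (Fjx1) after quantile normalization, 1226 and 10 with centring, 1568 and 11 with weights, and 24 and 0 without the muscle tumours, in place of 408 and 2. In that comparison Wwtr1 was 0.43 to 0.62 over 29 alternatives (adjusted p of 0.00647 to 0.133) and Frmd6 0.75 to 0.98 (0.00693 to 0.102); each lost its call in 7 of 19 fits without 1 tumour and in 2 of 10 others, quantile normalization (0.43 and 0.75, adjusted p of 0.0696 and 0.0626) and the muscle tumours (0.47 and 0.91, adjusted p of 0.133 and 0.0625). Against the Itgb1 KO, 3 genes became 7 with only those groups, 33 with weights and 17 without the muscle tumours. With weights the Itgb1 KO had 0 genes in place of 1, and the interaction 3 in place of 0. The cause of these shifts was not tested.

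Without 1 tumour at a time, genes called ran from 0 to 1 (Itgb1 KO), 0 to 0 (Itgb3 KO), 14 to 125 (labelled DKO against control), 0 to 24 (against Itgb1 KO), 56 to 459 (against Itgb3 KO) and 0 to 5 (interaction), and members called from 0 to 1 against control and 0 to 3 against the Itgb3 KO. Member medians ran from -0.09 to 0.04, -0.12 to -0.06, 0.17 to 0.24, 0.18 to 0.28, 0.27 to 0.36 and 0.29 to 0.40 in that order. The correlations ran from 0.41 to 0.64 (Amotl2 with Ccn1), 0.25 to 0.63 (Ccn1 with Ankrd1), 0.32 to 0.51 (Ccn1 with Ccn2), 0.40 to 0.63 (Ccn2 with Ankrd1), 0.61 to 0.81 (Lats2 with Ccn1) and 0.34 to 0.49 (Yap1 with Wwtr1), and 2 of the pairs, Lats2 with Ccn1 and Ccn2 with Ankrd1, each passed in 2 of these fits. With group means kept, Ccn1 with Ccn2 was 0.523 and Lats2 with Ccn1 0.505.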
